A study of Mus musculus with 6 samples.

Results

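The cochlea of noise-exposed mice 24 h after a saline injection was compared with the cochlea of mice that had noise alone, as 1 array minus 1 array out of the 6 in the study. All animals were female C57BL/6 mice aged 6 weeks, with 6 mice per group. Both groups compared here had been exposed to intense noise for 2 h. The saline group then received an intraperitoneal injection of saline directly after the noise, as the vehicle control for dexamethasone, and was sampled 24 h later. The noise-only group was not injected, and its labels give no time after the noise. Later course and injection therefore cannot be told apart in this comparison. The other 4 arrays held an unexposed and uninjected baseline, saline at 12 h, and dexamethasone, a synthetic glucocorticoid, at 10 mg/kg at 12 h and 24 h. The tissue is dissected cochlea, and the labels do not say whether the animals of a group were pooled. A single array stands for each group, so differences have no check against replicates and carry no p-value.

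The cochlea turns sound into nerve signals through hair cells of the organ of Corti, which stand on supporting cells and are wired to spiral ganglion neurons. The stria vascularis and the fibrocytes of the spiral ligament keep up the potassium-rich fluid that drives transduction. Intense noise is known to damage hair cells and synapses, to switch on immediate early genes and chemokines, and to draw in monocytes. The capsule around the cochlea is bone that holds blood-forming marrow, and the vestibular and facial nerves, the middle ear and the cerebellum lie next to it. In such bulk tissue, fewer cells of a type and less RNA per cell cannot be told apart.

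All measured mitosis and replication genes were higher on the saline array, so the promoters of leading members are shown first. Mitotic genes are known to share CCAAT boxes, bound by NF-Y, and the CHR element, bound by the DREAM and MuvB complexes, while replication genes often carry E2F sites. The sequences are the 150 bases before the first listed transcription start of RefSeq on GRCm38.p6, 5′ to 3′ on the gene's strand. Capitals mark CCAAT and TTTGAA (CHR) on either strand in the mitotic genes Ttk, a spindle checkpoint kinase (chr9:83834539-83834688, + strand), Kif2c, a microtubule-depolymerising kinesin (chr4:117178773-117178922, - strand), and Cenpf, a kinetochore protein (chr1:189688087-189688236, - strand).
Ttk: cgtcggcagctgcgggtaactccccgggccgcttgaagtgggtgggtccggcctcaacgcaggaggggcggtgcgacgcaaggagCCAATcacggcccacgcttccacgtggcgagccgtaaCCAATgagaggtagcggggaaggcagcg
Kif2c: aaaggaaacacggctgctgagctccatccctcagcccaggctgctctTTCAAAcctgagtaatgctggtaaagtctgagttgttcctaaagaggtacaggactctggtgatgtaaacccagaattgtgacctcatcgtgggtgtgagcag
Cenpf: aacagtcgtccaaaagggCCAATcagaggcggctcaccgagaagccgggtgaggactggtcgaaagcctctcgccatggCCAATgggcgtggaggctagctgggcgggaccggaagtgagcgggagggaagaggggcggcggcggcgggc
In the replication genes E2f2, an E2F transcription factor (chr4:136172124-136172273, + strand), Rrm2, the small subunit of ribonucleotide reductase (chr12:24708104-24708253, + strand), and Cdc6, which loads the MCM helicase (chr11:98908001-98908150, + strand), capitals mark CCAAT and the E2F letters TTTCCCGC, TTTGGCGC, TTTCGCGC and TTTGCCGC on either strand.
E2f2: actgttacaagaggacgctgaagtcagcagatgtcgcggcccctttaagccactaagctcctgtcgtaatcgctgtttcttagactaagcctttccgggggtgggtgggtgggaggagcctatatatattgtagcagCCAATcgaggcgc
Rrm2: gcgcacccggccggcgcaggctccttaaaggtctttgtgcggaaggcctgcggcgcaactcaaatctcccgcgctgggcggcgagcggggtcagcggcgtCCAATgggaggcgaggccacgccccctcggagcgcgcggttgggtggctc
Cdc6: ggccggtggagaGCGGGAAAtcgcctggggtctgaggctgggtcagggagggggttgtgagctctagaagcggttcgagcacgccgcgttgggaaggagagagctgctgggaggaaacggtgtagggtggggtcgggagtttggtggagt
Ttk and Cenpf hold 2 CCAAT boxes each, Kif2c 1 CHR element, E2f2 and Rrm2 1 CCAAT box each, and Cdc6 1 E2F site. Tyms, the next replication gene by size of the difference, is not shown and held no CCAAT, CHR or E2F letters. Of 35 genes on the G2 and mitosis list 29 had a sequence, and CCAAT was present in 22 of these (75.9%), with 2 or more copies in 14. The same letters occurred in 25.3% of all 27018 promoter windows of that length and in 27.3% of those of the measured genes. CHR letters occurred in 8 of the 29 (27.6%), beside 9.25% of all windows and 5.79% of those of measured genes. Among 24 of the 30 replication genes, CCAAT was present in 13 (54.2%) and an E2F site in 4 (16.7%). The E2F letters occurred in 1.26% of all windows and in 1.95% of those of measured genes. Among 28 interferon-response genes, CCAAT and CHR letters were each present in 5 (17.9%). Among 20 erythroid genes, CCAAT was present in 8 (40.0%) and CHR letters in 1 (5.0%). A match describes the letters in this window and is not evidence of binding.

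Levels below are log2 of the processed signal minus log2 of the array's 75th percentile signal, so that 0 is the 75th percentile, and a difference is the level on the saline 24 h array minus that on the noise-only array. Of 37288 named genes, 22950 were well above background on both arrays and are called measured. Among these, 362 (1.58%) were at least 2-fold higher on the saline array and 563 (2.45%) lower by 2-fold or more, which together is 4.03%. Of all measured genes 56.2% lay above 0 and 43.8% below. The median difference was 0.034, with quartiles of -0.12 and 0.20. The interval after a fold is the 95% interval of the spot error that the scanner software gives, and covers spot error only. Measured genes lay beyond it upwards in 8.92% and downwards in 6.99%. Both arrays lay on the same slide and in the same scan, with 75th percentile signals of 610 and 679 units, and 63.0% of probes on the saline array against 68.4% on the noise-only array were well above background. The baseline and dexamethasone 24 h arrays shared that slide and scan. Saline 12 h and dexamethasone 12 h lay on another slide and in another scan, so for their levels time cannot be told apart from slide and scan. Scaling on spike-in probes instead would shift every difference by -0.163, so list medians above 0 by less than that size change sign under it. Log2 spike-in signal minus the 75th percentile was 1.226 on noise only, 1.389 on saline 24 h, 1.166 at baseline and 1.974 on saline 12 h. It was 1.521 on dexamethasone 24 h and 1.706 on dexamethasone 12 h. Comparisons with these other arrays would therefore shift by other amounts.

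Dim genes were higher more often, and brighter genes lower. When the measured genes were cut into 5 bins of equal size by level, 201 of the dimmest bin were at least 2-fold higher and 98 lower. Counts in the brightest bin were 8 higher and 37 lower. Where a 2-fold gene had other measured probes, all of these had the same direction in 177 of 209 genes (84.7%).

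**Figure D1:**
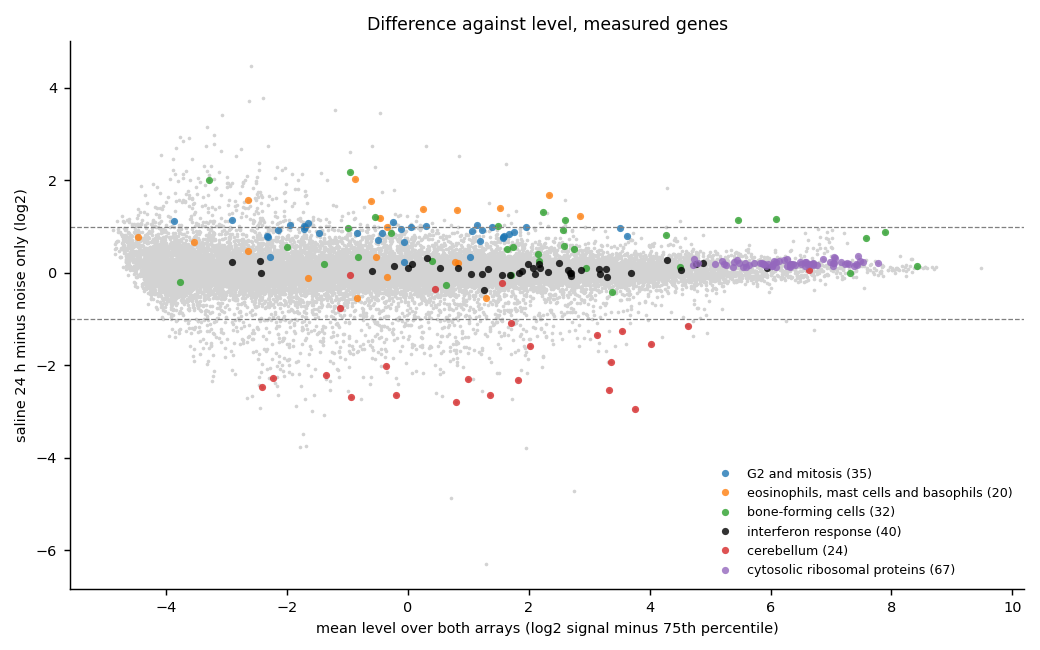
Difference between the saline 24 h and the noise-only array (log2, y axis) against the mean level over both arrays (log2, x axis) for 22950 measured genes in grey, with the measured members of 6 gene lists in colour and dashed lines at 2-fold. Mitotic genes lie above 0 at all levels, cerebellar genes lie mostly below the lower line, and interferon-response and ribosomal protein genes lie close to 0.

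The comparison was described through 48 gene lists of cell types, pathways and neighbouring tissues. Of the 2-fold genes, 68 of the 362 higher and 63 of the 563 lower were on any list. Higher genes on lists came mainly from marrow and blood (24), bone and cartilage (15), neighbouring tissues (14) and cell division (10). Lower ones came mainly from neighbouring tissues (49) and the cochlear lists (11). No gene of the cochlear lists was among the higher ones. The areas differ in how many genes they hold, so these counts do not rank them. Of all measured genes, 1.58% were at least 2-fold higher and 2.45% lower.

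**Figure D2:**
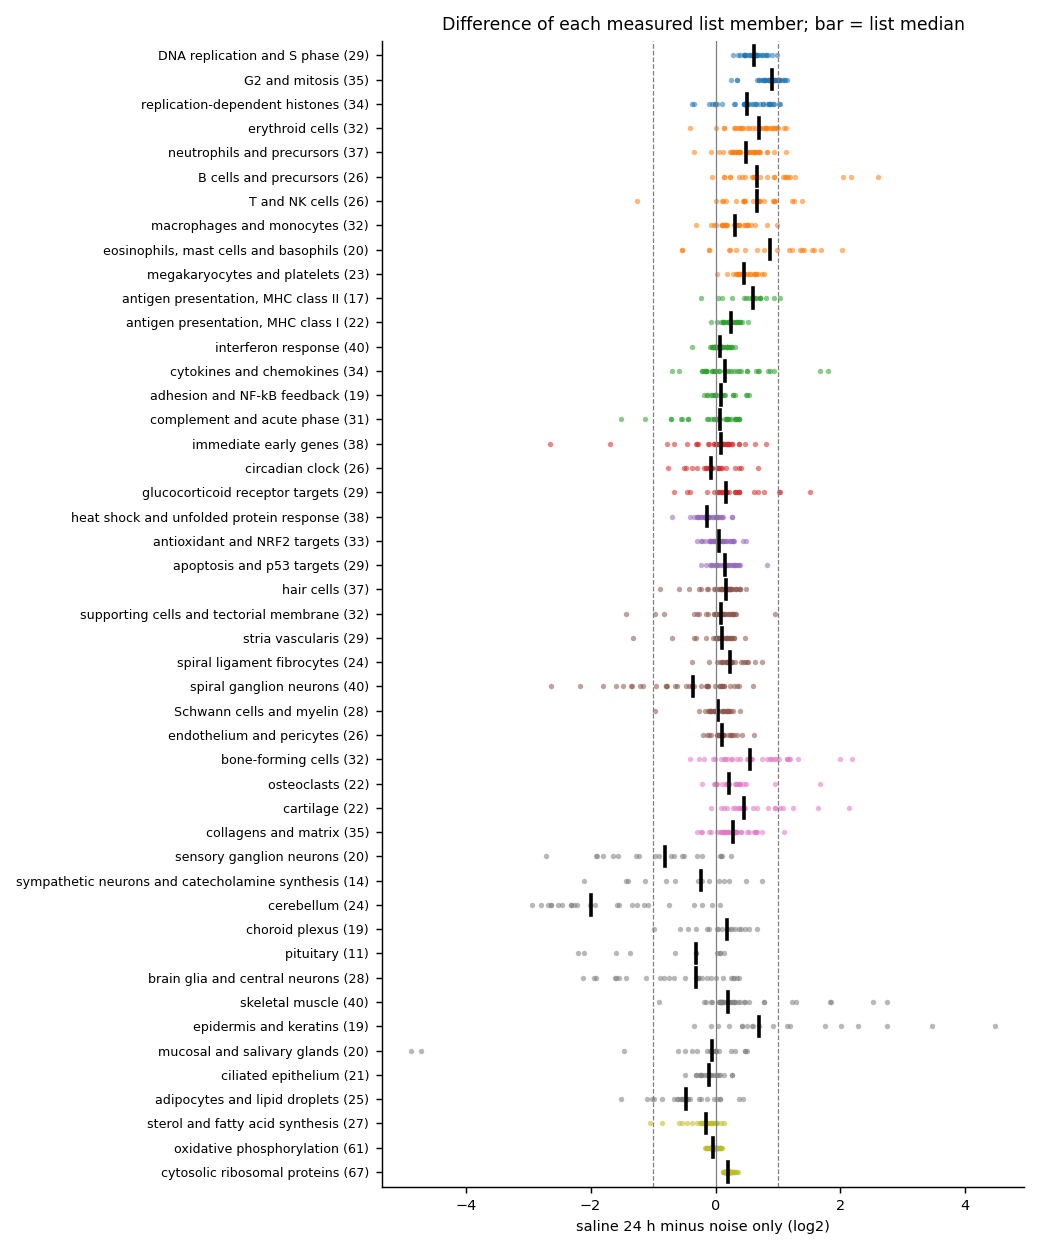
Difference between saline 24 h and noise only (log2, x axis) of every measured member of 47 gene lists (rows, with the number measured), coloured by area, with the list median as a black bar and dashed lines at 2-fold. Lists of dividing, blood-forming and bone-forming cells lie to the right of 0, lists of neurons and the cerebellum to the left, and interferon, clock and oxidative phosphorylation genes gather around 0.

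Mitosis and replication genes were higher on the saline array, and replication-dependent histones mostly so. The G2 and mitosis list had a median difference of 0.90, with 35 of 35 members above 0, 32 beyond spot error and 8 at least 2-fold higher. Ttk, whose probe lies at chr9:83765807-83765866 on mm9, stood at -3.48 on the noise-only array and -2.33 on the saline array, 2.22-fold higher (1.63 to 3.03). Its saline 24 h level was close to the baseline of -2.34, while dexamethasone at 24 h (-3.55) was close to noise only. Cenpf was 2.14-fold higher (1.62 to 2.83) and the chromosomal passenger kinase Aurkb 2.11-fold (1.59 to 2.81). Topoisomerase Top2a was 2.03-fold higher (1.54 to 2.69), and all 3 of its other probes moved the same way. Mki67, the proliferation antigen, went from 3.03 to 3.98. The mitotic kinases had differences from 0.34 (Nek2) to 1.15 (Ttk), and the 5 kinesins from 0.80 (Kif11) to 1.12 (Kif2c).

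DNA replication genes had a median of 0.62, with 29 of 29 measured members above 0, 27 beyond spot error and none at 2-fold. E2f2 led with a level of 2.43 on noise only and 3.42 on saline 24 h, 1.98-fold higher, followed by Rrm2 at 1.87-fold (1.42 to 2.47). The 12 origin licensing and fork genes lay between 0.45 (Mcm4) and 0.84 (Cdc6). Replication-dependent histones, which are made in S phase, had a median of 0.51 with 28 of 34 above 0 and 2 at 2-fold. Histone genes are near-identical copies, so single members are uncertain. With spike-in scaling the 3 medians were 0.74, 0.46 and 0.35. On dexamethasone 24 h minus noise only, which shares the noise-only array, the mitosis median was -0.079 and the replication median -0.22. On noise only minus baseline, which also shares that array, the values were -1.0 and -0.48. Medians against baseline were also below 0 on dexamethasone 24 h (-1.0 and -0.70) and dexamethasone 12 h (-0.70 and -0.45), while the saline 24 h array stood near baseline, with medians of -0.063 and 0.13.

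Red cell, white cell and platelet genes were higher together with the division genes. The erythroid list had a median of 0.70, with 31 of 32 measured members above 0, 23 beyond spot error and 2 at 2-fold. Red cell membrane and blood group genes had a median of 0.92, led by Rhag, a subunit of the Rh complex, at 2.14-fold. The master regulators Gata1 and Klf1 were 1.63-fold (1.24 to 2.16) and 1.77-fold (1.34 to 2.34) higher. The 5 haemoglobin chains differed less, with a median of 0.31, a range of 0.13 (Hba-a1) to 0.53 (Hbb-b2), and near-identical copies among them. Sptb, erythroid beta spectrin, was the exception at -0.41, and its other probe went the other way. Summed over the list, the linear level was 1410 times the 75th percentile signal on the noise-only array and 1720 on both the saline 24 h and the baseline array. Dexamethasone 24 h, at 1430, was close to noise only, and the 12 h arrays stood at 2270 (saline) and 1880 (dexamethasone).

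Genes of B cell precursors had the highest median of the blood cell groups listed here. The B cell list had a median of 0.67 with 9 of 26 members past 2-fold upwards, 25 above 0 and none 2-fold lower. Vpreb1 (probe at chr16:16868559-16868618 on mm9), a surrogate light chain of the pre-B receptor, stood at -2.27 on noise only and 0.35 on saline 24 h, a 6.11-fold difference (4.61 to 8.11). Its baseline level was 1.02. Dntt, the template-free polymerase of V(D)J joining, was 4.49-fold higher (3.37 to 5.98) and Vpreb2 4.14-fold (2.91 to 5.90). Igll1, which pairs with the Vpreb proteins, was well above background on the saline array only, at least 6.92-fold higher by the bound explained below. Together the 6 measured pre-B genes had a median of 1.62 and the 20 other B cell genes 0.61, from -0.05 (Cd22) to 1.28 (Pou2af1). Rag1 was not well above background on any array. Dexamethasone at 24 h held Vpreb1 at 0.57, close to saline, although its mitotic genes stayed near noise only.

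Granulocyte genes separated by cell type. Eosinophil genes were higher, 8 of 9 at least 2-fold, with a median of 1.41. Epx, eosinophil peroxidase (probe at chr11:87678288-87678347 on mm9), had a level of -1.88 on noise only and 0.14 on saline 24 h, 4.07-fold higher (3.07 to 5.38), with 0.23 at baseline and 2.24 on the saline 12 h array. Prg2, the major basic protein of eosinophil granules, was 3.22-fold higher (2.44 to 4.25), and Il5ra, the interleukin 5 receptor chain, 2.98-fold (2.19 to 4.06). Ear1, Ear6 and Ear10, ribonucleases of the same granules, were 2.56- to 2.65-fold higher, but they are near-identical family members. Mast cell and basophil genes had a median of 0.23, with 1 of 11 at 2-fold, the basophil protease Mcpt8 (2.27-fold, 1.72 to 3.00). The mast cell proteases Cma1 (-0.54), Cpa3 (-0.10) and Mcpt4 (-0.10) were not higher.

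Neutrophil genes were higher by less. The list had a median of 0.49 with 35 of 37 above 0, 19 beyond spot error and 1 at 2-fold. Secondary and tertiary granule genes, made late in maturation, had a median of 0.54 and Camp, the cathelicidin, went from 6.03 to 6.72. Primary granule genes, made in promyelocytes, had a median of 0.33, and Elane, neutrophil elastase, differed by 0.12, within spot error. Both groups stayed below the baseline array: Camp stood at 7.40 there and Elane at 3.83, against 3.16 on saline 24 h.

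Lymphocyte, platelet and antigen presentation lists moved in the same direction. T and NK genes had a median of 0.66 and 25 of 26 above 0, with 3 at 2-fold, among them Klrd1, an NK receptor chain (1.39), and Cd3g (1.26). Klrb1c was the exception at -1.26, where its other measured probe had the opposite sign. The median was 0.13 over the 6 brighter members. Platelet genes had a median of 0.46 with 23 of 23 above 0 and none at 2-fold. MHC class II genes, which present peptides to CD4+ T cells, had a median of 0.60, with H2-Aa going from -0.02 to 0.70 and its baseline at 1.13. Macrophage genes had a smaller median of 0.32 with 8 of 32 beyond spot error and none at 2-fold, led by Trem2 (0.98).

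**Figure D3:**
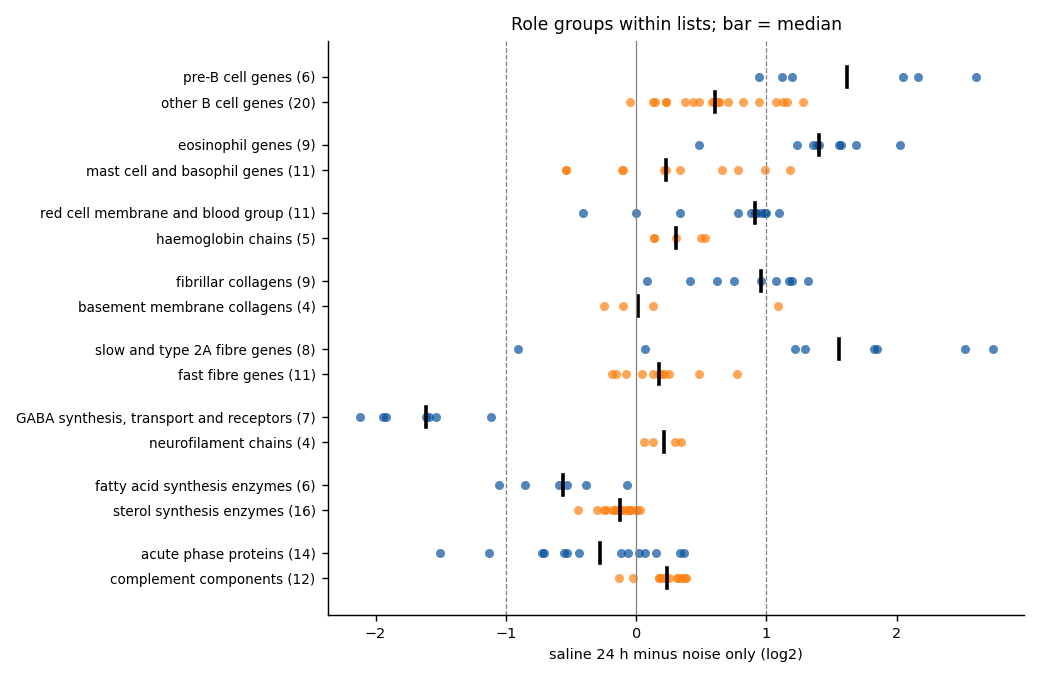
Difference between saline 24 h and noise only (log2, x axis) of the measured members of 16 role groups (rows, with the number measured), with group medians as black bars, neighbouring groups paired in blue and orange, and dashed lines at 2-fold. Pre-B, eosinophil, red cell membrane, fibrillar collagen and slow muscle genes have medians further right than their partners, with single members that overlap, and GABA genes lie left of all neurofilament genes.

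Bone and cartilage matrix genes were higher as well. The bone-forming list had a median of 0.56, with 27 of 32 above 0, 19 beyond spot error, 8 at least 2-fold higher and none 2-fold lower. Ifitm5 (probe at chr7:148135949-148136008 on mm9), a membrane protein of mineralising osteoblasts, went from -2.05 to 0.14, 4.55-fold (3.43 to 6.04), and stood at 0.25 at baseline. Panx3, a channel of osteoblasts and chondrocytes, was 3.99-fold higher (2.80 to 5.70). Matrix proteins followed: Ibsp, bone sialoprotein, was 2.21-fold higher (1.68 to 2.92) and Bglap, osteocalcin, 2.20-fold (1.67 to 2.90). Osteocyte genes did not move as a set, with Mepe at 0.82, Dmp1 at 0.09, Sost at 0.19 and Fgf23 at -0.41. Spp1, osteopontin, differed by -0.01.

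The 9 fibrillar collagens of the lists had a median of 0.96 with 4 at 2-fold, from 0.08 (Col5a3) to Col11a1 at 2.49-fold (1.89 to 3.29), and both other Col11a1 probes agreed in sign. Col1a1, the main chain of bone collagen, went from 5.51 to 6.68. The 4 basement membrane collagens had a median of 0.02, although Col15a1 was 2.12-fold higher (1.37 to 3.28). Cartilage genes had a median of 0.46 with 5 of 22 at 2-fold. Among them were Snorc (2.14), Col10a1, the collagen of hypertrophic cartilage, at 3.11-fold (2.30 to 4.22), and Col2a1, the main cartilage collagen, at 2.11-fold, from 1.65 to 2.72. Col22a1, a collagen of tissue junctions and 1 of the 10 highest brighter genes, was 2.97-fold higher (2.25 to 3.92). Osteoclast genes had a median of 0.21, and 1 of 22 was 2-fold higher: Tnfsf11, the ligand RANKL that drives osteoclast formation, at 3.19-fold (2.29 to 4.46). Acp5 and Ctsk, effectors of resorption, differed by 0.37 and 0.33, within spot error. For the bone-forming list the median was -0.62 on noise only minus baseline and 0.72 on dexamethasone 24 h minus noise only, which share the noise-only array. The summed level of the list was 983 on noise only and between 1050 and 1560 on each of the other 5 arrays.

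By their medians, the marrow, bone and division lists were thus lower on the noise-only array than on the saline 24 h and baseline arrays. The noise-only array was not alone in this for blood cells. On dexamethasone 24 h minus baseline the medians were -0.81 for erythroid, -1.2 for neutrophil and -0.97 for platelet genes, but -0.046 for the bone-forming list. How much bone and marrow went into each sample is not given, and its part in these differences was not tested.

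Interferon-response genes stood at like levels on both arrays. None of 40 measured members was 2-fold apart or beyond spot error, and the median was 0.064 (-0.099 with spike-in scaling). Ifit3 (probe at chr19:34663105-34663164 on mm9), an RNA-binding antiviral effector, was close to 4.55, its level on saline 24 h, on noise only too, with a fold of 1.04 (0.786 to 1.37). Its levels elsewhere were lower: 1.20 at baseline, 3.14 on saline 12 h, 2.54 on dexamethasone 12 h and 3.17 on dexamethasone 24 h. Mx1, a GTPase that blocks viral replication, stood at 1.05 and 1.03, against -1.66 at baseline. Among the sensors and transcription factors, Irf7, the main amplifier of type I interferon, stood at 4.78 and 4.99, against 3.15. Differences ranged from -0.37 (Oas2) to 0.32 (Eif2ak2), and both ends lay within spot error. Against the baseline array, the list median was 1.2 for noise only, with 26 members 2-fold higher, and 1.2 for saline 24 h, with 28; these comparisons share the baseline array. MHC class I genes, which interferon can raise, had a median of 0.24 (0.074 with spike-in scaling) and none was 2-fold apart.

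Chemokines parted by ligand. Of 34 measured cytokines and chemokines, 2 were at least 2-fold higher and none lower, with a median of 0.15 (-0.012 with spike-in scaling). Ccl8 (probe at chr11:81930108-81930167 on mm9), a monocyte chemoattractant, was the highest: it stood at -1.13 on noise only, close to the baseline of -1.28, and at 0.66 on saline 24 h, 3.48-fold higher (2.63 to 4.59). Its neighbours among monocyte attractants did not follow. Ccl2, the main CCR2 ligand, went from 1.81 to 1.12, 1.61-fold lower (1.22 to 2.13), and was still above the baseline of -1.35. Ccl7 (-0.18) and Ccl12 (-0.17) differed within spot error. Cxcl10, which draws activated T cells through CXCR3, went from 3.83 to 3.24, beyond spot error, while Cxcl9 on the same receptor was 1.79-fold higher (1.32 to 2.42) at a low level. For Il6 both arrays were at background.

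Acute phase genes leaned lower and complement genes did not. Of 14 measured acute phase genes 2 were at least 2-fold lower, 9 lay below 0 and 6 lay below spot error, with a median of -0.28. Serpina3n, a protease inhibitor induced by injury and glucocorticoids, went from -1.39 to -2.89, 2.84-fold lower (2.10 to 3.84). Saa3, serum amyloid, went from -1.12 to -2.25, 2.19-fold lower (1.63 to 2.93), and was not well above background at baseline. The 12 complement components had a median of 0.24 and none lay beyond spot error.

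Immediate early genes, which are switched on within minutes of depolarisation or injury, mostly did not differ. The list had a median of 0.089 (-0.074 with spike-in scaling), with 2 of 38 at least 2-fold lower and none 2-fold higher. Beyond spot error 5 were lower and 3 higher, the latter led by Dusp2 at 1.75-fold (1.33 to 2.31). Egr4 (probe at chr6:85461153-85461212 on mm9), a zinc finger factor of active neurons, was 6.27-fold lower (4.48 to 8.78), from -0.83 on noise only to -3.48 on saline 24 h, near the baseline of -3.71. Dusp5, a nuclear ERK phosphatase, went from 1.54 to -0.16, 3.24-fold lower (2.45 to 4.27), with -0.65 at baseline. Egr4 stood at -1.8 on saline 12 h, -1.4 on dexamethasone 12 h and -4.29 on dexamethasone 24 h. Dusp5 stood at 1.07, 1.3 and 0.19 on these arrays in that order. Fos was 1.59-fold lower (1.20 to 2.10) and the orphan receptor Nr4a2 1.72-fold lower (1.30 to 2.27). Most other members differed within spot error. Atf3, a stress-induced AP-1 partner, stood at 0.64 and 0.82, both above the baseline of -1.27, and Egr1 differed by -0.10 and Junb by 0.10. Heat shock and unfolded protein genes had a median of -0.13, none was 2-fold apart, and 28 of 38 lay below 0. Hmox1, haem oxygenase, stood at -1.30 and -1.13, with 2.61 at baseline.

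Of 26 measured clock genes none was 2-fold apart, 1 lay above and 3 below spot error, and the median was -0.066. Per2 (probe at chr1:93312595-93312654 on mm9), a repressor of the clock, stood at 1.73 on noise only and 1.84 on saline 24 h, while the other 4 arrays stood between -0.84 and -0.15. Dbp, an output factor, stood at 5.88 and 5.79, against 3.63 at baseline. Arntl, which encodes the activator BMAL1, was the largest difference: -0.84 on noise only and -1.59 on saline 24 h, 1.69-fold lower (1.27 to 2.25), with both other probes in the same direction. In the loop that controls it, Rora, an activator, was 1.42-fold lower (1.08 to 1.88) and Nr1d1, the repressor REV-ERB alpha, 1.38-fold lower (1.05 to 1.82). The labels do not state a time of day for sampling.

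Targets of the glucocorticoid receptor were examined because saline is the vehicle arm. Among the 29 measured, 3 lay past 2-fold upwards and none downwards, with a median of 0.17 (0.011 with spike-in scaling). Beyond spot error 6 were higher and 3 lower, and 5 lay below 0, the lowest at -0.66. Zbtb16 (probe at chr9:48462419-48462478 on mm9), a zinc finger repressor, went from 0.58 to 2.10, 2.86-fold higher (2.17 to 3.77), and stood at 1.92 at baseline. Fkbp5, the co-chaperone that dampens the receptor, was 2.01-fold higher (1.52 to 2.65), from 0.89 to 1.90, with 1.82 at baseline. Hif3a was 2.05-fold higher (1.55 to 2.72), and Tsc22d3, the leucine zipper GILZ, differed by 0.68 from its noise-only level of 4.12, beyond spot error. Tsc22d3 and Hif3a stood above their baselines of 4.27 and -1.94, whereas Zbtb16 and Fkbp5 were near theirs. Zbtb16 was also low on both 12 h arrays (0.72 and 0.80). Sgk1 (0.37), Ddit4 (0.22) and Klf9 (0.07), further direct targets, differed within spot error.

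**Figure D4:**
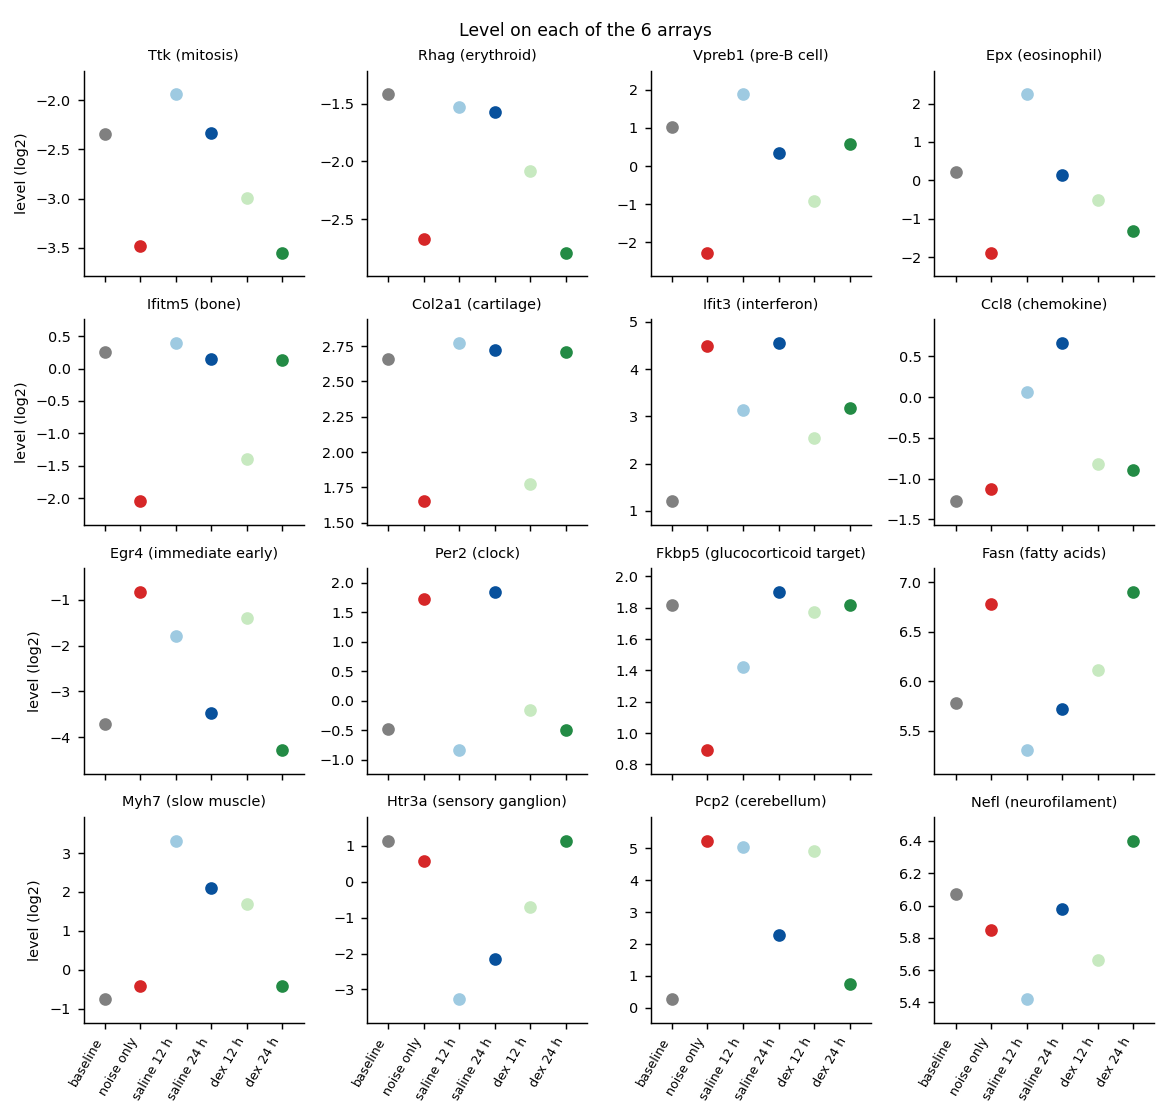
Level (log2 signal minus the 75th percentile, y axis) of 16 genes on each of the 6 arrays, 1 point per array, with axes that differ between panels. Division, blood, bone and cartilage genes are low on noise only (red) and near baseline on saline 24 h (dark blue), whereas Ifit3 and Per2 are high on both.

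Genes that define the cochlea were present and close to equal. Of 18 defining cochlear genes 17 were measured, with a median of 0.10 (-0.058 with spike-in scaling) and none 2-fold apart. The exception was Slc26a5, the outer hair cell motor prestin, whose probe was not well above background on any array. Coch, the main fibrocyte protein, stood at 6.01 and 6.03. Otos, otospiralin, was the largest difference, from 6.94 to 7.58, 1.56-fold higher (1.18 to 2.05), with 7.59 at baseline.

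Hair cell genes had a median of 0.16 (-0.0022 with spike-in scaling), and none of 37 was 2-fold apart. Otof, which drives release at the inner hair cell synapse, stood at 2.17 and 2.44, and Myo7a, a hair bundle myosin, at 0.11 and 0.21. Of the list, 3 genes lay below spot error and 1 above it. The lower ones were Strip2 (-0.89), Cacna1d, the calcium channel of the inner hair cell synapse (-0.58), and Tmem255b (-0.42), of which Cacna1d had 1 of 2 other probes in the same direction and Tmem255b none of 2. The higher one was Pcdh15, a tip link cadherin, at 1.41-fold (1.05 to 1.89). Supporting cell genes had a median of 0.09, with Fabp7 (-1.43) the single 2-fold member. Stria vascularis genes had a median of 0.10, and Kcne1 and Kcnq1, which form the channel that secretes potassium, differed by 0.18 and 0.09. Spiral ligament fibrocytes had a median of 0.23, with 22 of 24 above 0 and none at 2-fold. Schwann cell genes (0.037) and endothelial genes (0.11) held no 2-fold member.

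Part of the spiral ganglion list was lower. It had a median of -0.36, with 9 of 40 at least 2-fold lower, none higher and 17 below spot error. Gap43, a growth cone protein, went from 2.57 to 0.40, a difference of -2.17, with 2.19 at baseline. Prph, the peripherin of small sensory and type II ganglion neurons, was 3.49-fold lower (2.64 to 4.60), and Rbfox3, the neuronal nuclear antigen NeuN, 3.01-fold (2.28 to 3.98). Neurofilaments of the same neurons lay within spot error: Nefl stood at 5.85 and 5.98, Nefm at 5.11 and 5.41, and Nefh at 5.94 and 6.28. Gata3, a factor that spiral ganglion neurons need, differed by 0.23, and Pou4f1, a sensory neuron factor, was 1.51-fold higher (1.15 to 2.00). Several of the lower genes are also held by cerebellar or other ganglion neurons. Without genes that any other list holds, an alternative added after seeing the data, the median was -0.37 over 32 genes. A further alternative of this kind left out genes of the cerebellum list and 2-fold lower genes of other neuronal lists. It gave a median of -0.23 over 35 genes. Genes were left out partly for being lower in this same comparison, so a median closer to no difference follows from that choice.

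Cerebellar genes made up the most strongly lower list. The median was -2.0, with 19 of 24 measured members at least 2-fold lower and 23 below 0. Pcp2 (probe at chr8:3623377-3623436 on mm9), a Purkinje cell protein, stood at 5.23 on noise only and 2.29 on saline 24 h, 7.68-fold lower, with 0.27 at baseline and 5.03 on saline 12 h. Gabra6, the receptor subunit of granule cells, was 6.97-fold lower (5.27 to 9.20), and the midbrain-hindbrain factor En2 4.95-fold (3.75 to 6.54). Neurod1, Gng13 and Rgs8, which were among the 10 lowest brighter genes, were 6.21-, 5.79- and 6.64-fold lower and each was also above its baseline on both 12 h arrays. The summed level of the list was 323 on noise only, 170 on saline 24 h, 138 at baseline and 140 on dexamethasone 24 h, with En1 not well above background on any array. All 7 measured genes of GABA synthesis, transport and receptors were at least 2-fold lower, with a median of -1.61, and Gad1, which makes GABA from glutamate, was the lowest (-2.12). Of the 28 genes of brain glia and central neurons 8 were 2-fold lower, while the glial genes Gfap (-0.13) and Mobp (-0.08) lay within spot error. Slc1a3, a further glial gene of that list, was 1.77-fold lower (1.34 to 2.33), but its other probe had the opposite sign. Cerebellar and GABA genes were thus both lower. How much cerebellum went into each sample is not given, and its part in the spiral ganglion result was not tested.

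Genes of other nerve tissue and of the pituitary differed too. Sensory ganglion genes had a median of -0.81 with 8 of 20 at least 2-fold lower and none higher. Htr3a (probe at chr9:48707773-48707832 on mm9), the serotonin-gated channel, went from 0.58 to -2.14, 6.60-fold lower (4.95 to 8.80), and stood at 1.14 at baseline and -3.27 on saline 12 h. Scn10a, the sodium channel of nociceptors, was 3.74-fold lower (2.83 to 4.93), and Trpv1, the capsaicin receptor, was above background on noise only and not on saline 24 h, at least 4.40-fold lower. Unlike the cerebellar genes, these had a median of -1.5 against baseline on saline 24 h and of -0.29 on noise only, both of which share the baseline array. The summed level of the list was 50.6 on noise only and 32.5 on saline 24 h. Sympathetic genes had a median of -0.24 with 4 of 14 at 2-fold, among them Th, tyrosine hydroxylase, at 2.63-fold lower (1.99 to 3.47), but the median was 0.06 over the 7 brighter members. Of 11 measured pituitary genes 7 lay below 0 and 4 were at least 2-fold lower. Among the latter were growth hormone Gh at 4.27-fold (2.83 to 6.44) and prolactin Prl at 3.01-fold (2.28 to 3.98). Both were below baseline on noise only already. Gh stood at -1.86 there, 0.41 at baseline and 2.33 on dexamethasone 24 h, and Prl at 1.16, 3.84 and 5.7 in that order.

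Skeletal muscle genes split by fibre type. The list had a median of 0.20 (0.042 with spike-in scaling) and 6 of 40 were at least 2-fold higher, all of slow or type 2A fibres. Myl2 (probe at chr5:122556732-122556791 on mm9), the slow regulatory light chain, was the highest of the brighter genes, from -1.08 to 1.66, 6.67-fold (5.05 to 8.81). Myh7, the slow heavy chain, was 5.77-fold higher (4.37 to 7.61), from -0.42 to 2.10, with -0.75 at baseline and 3.31 on saline 12 h. Myh2, the type 2A heavy chain, was 3.55-fold higher (2.69 to 4.68). None of 11 fast fibre genes was 2-fold apart, with a median of 0.18, and the fast heavy chain Myh4 stood at 6.32 and 6.16. Sln, sarcolipin, a muscle calcium pump inhibitor, went the other way, from 3.85 to 0.07, 13.8-fold lower (10.4 to 18.2), and Casq2, slow calsequestrin, was 1.87-fold lower (1.42 to 2.47).

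Skin genes were higher, and 3 of 20 measured secretory gland genes were at least 2-fold lower. Of 19 measured epidermal genes 8 were at least 2-fold higher and none lower, with a median of 0.70. Krt15 (probe at chr11:99993331-99993390 on mm9), a basal keratin, went from -4.84 to -0.36, 22.3-fold (14.5 to 34.3), and the cornified envelope protein Lor from -2.19 to 1.27, 11.0-fold (8.26 to 14.6). Baseline levels were above both, at 1.35 and 2.87. Lipf, gastric-type lipase (probe at chr19:34051173-34051232 on mm9), had the lowest difference among brighter genes: 4.43 on noise only and -1.86 on saline 24 h, 78.3-fold lower (58.9 to 104.0), with 7.92 on saline 12 h. Dmbt1 and Bpifb1, secreted defence proteins of mucosal glands, were 29.4-fold (22.1 to 39.0) and 26.4-fold lower, and Tff2, a trefoil peptide, differed by -1.47. The gland list as a whole had a median of -0.051, with 4 genes below and 2 above spot error. The summed level of the epidermal list was 14.2 on noise only, 25.2 on saline 24 h and 210 on saline 12 h.

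Lipid genes leaned lower. Adipocyte genes had a median of -0.48 with 3 of 25 at least 2-fold lower, none higher and 16 below spot error. Thrsp, a regulator of lipogenesis, went from 3.92 to 2.41, 2.85-fold lower (2.16 to 3.76). All 6 fatty acid synthesis enzymes lay below 0 with a median of -0.56. Fasn, fatty acid synthase (probe at chr11:120668460-120668519 on mm9), went from 6.78 to 5.72, 2.07-fold lower (1.57 to 2.74), to a level near the baseline of 5.78, and acetyl-CoA carboxylase Acaca was 1.80-fold lower (1.37 to 2.38). The 16 sterol synthesis enzymes had a median of -0.12 and 1 of them lay beyond spot error, Mvd (-0.45). The adipocyte marker Adipoq was 1.43-fold lower (1.08 to 1.89) and Lep differed by 0.07, within spot error. Summed over the adipocyte list, the level was 261 on noise only and 203 on saline 24 h, and the part of fat tissue in the lipid genes was not tested.

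Housekeeping lists gave the narrowest ranges. Of 67 measured cytosolic ribosomal protein genes all lay above 0 and none lay beyond spot error, with a median of 0.20 that came to 0.034 with spike-in scaling. Nuclear-encoded oxidative phosphorylation genes had a median of -0.038 with none of 61 beyond spot error. Antioxidant genes (0.052), p53 targets (0.15), adhesion and NF-kB feedback genes (0.093), choroid plexus genes (0.18) and ciliated epithelium genes (-0.10) held no 2-fold member.

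Among brighter genes outside the lists, Prss35, a secreted protease-like protein, was 5.12-fold higher (3.88 to 6.76), from 0.44 to 2.80, with both other probes in the same direction. It stood between 2.79 and 2.93 on the baseline, saline 12 h and dexamethasone 24 h arrays and at 1.21 on dexamethasone 12 h. Lhx1os, a noncoding RNA next to the Lhx1 gene, was 6.34-fold lower, from 1.90 to -0.77, but its other probe had the opposite sign.

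For genes well above background on 1 array only, the fold is a lower bound, set against the higher of the dimmest well-measured signal on the other array and the gene's own signal there. On the saline array only, 380 genes were measured and 360 were at least 2-fold higher by this bound. On the noise-only array only, 1976 were measured and 125 at least 2-fold lower. The dimmest well-measured signal lay lower on the noise-only array than on the saline array. A gene on the saline array only therefore reaches 2-fold by this bound more easily, and the counts of both directions cannot be set against each other. The largest bounds upwards were Rhox3g (38.6), Slfn5os (38.5), Olfr1265 (35.5), Tifab (34.5) and the epidermal gene Crct1, which was above background on every array but the noise-only one. Rhox3g and Tifab were above background on the saline 24 h array and on no other of the 6. Among the largest bounds downwards were Hoxb5 (19.3), the cholecystokinin receptor Cckar (10.6), the pancreatic and mucosal glycoprotein Gp2 (9.13) and Ankrd60 (7.28).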

How the data were processed

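RNA of the 6 groups was labelled with Cy3 and read on 6 single-colour Agilent arrays. Scanner files as deposited give linear intensity per spot, which the authors obtained, per the file headers, with version 10.10.1.1 of Agilent Feature Extraction. That software subtracted background and set a multiplicative error of 10%, and the headers place probes on mm9. A second deposited table, the series matrix, is in log2 units: set against the scanner values, all probes (100%) of a column were offset from log2 of the processed signal by a single constant, to within 0.002, so scale, centring and direction were found from the values. Its column medians ran from -2.989 (noise only) to -2.82 (dexamethasone 12 h), with -2.937 for saline 24 h, -2.964 for baseline, -2.86 for saline 12 h and -2.908 for dexamethasone 24 h.

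Outlier spots were left out, spots of a probe averaged, and the 75th percentile of each array, taken over its 56605 non-control probes, subtracted on the log2 scale. Of these probes 33903 were named through accessions in a RefSeq table of GRCm38.p6 and 22702 kept the file's name. A gene was represented by its brightest probe over the 6 arrays (11824 genes had more than 1). No spot was saturated, and repeated probes had a median SD of 0.0353 on the saline 24 h array and 0.036 on the noise-only array. The number of arrays limits the precision.

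Named genes were the 10 highest and 10 lowest among genes at or above the median level, leaving out clone names, up to 4 members of each of 48 lists by size, the 5 largest bounds each way, and genes that lead other comparisons of the series. A few genes that meet this rule are left out of the text. Further members and the role groups were named after their values were seen. The members and lists were chosen with earlier results of these data known. The calculation was tested on simulated data. Tools were Python 3.11.15, pandas 2.3.3, numpy 2.4.6, matplotlib 3.10.9, R 4.3.3, limma 3.58.1 (normexp with offset 50) and data.table (version 1.17.8).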

Additional observations from a re-analysis of the deposited data

How the results depend on the processing

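Both arrays being single, leaving out a replicate was not possible. No paired analysis was possible because each group has 1 array and the labels carry no replicate numbers. The count of 2-fold higher genes was 125 with normexp and quantile normalization, 234 with spike-in scaling, 37 among genes at or above the median level, 1636 without the filter on dim probes, 1321 at 1.5-fold and 118 at 3-fold. The count of lower genes was 216 at or above the median level, 1291 without the filter, 1142 at 1.5-fold and 208 at 3-fold. Both together gave 501 with normexp, 253, 2927, 2463 and 326 under the other 4 settings in that order. Bounds against 2 times the dimmest signal left 203 genes higher and 34 lower. With normexp, medians were 0.43 for T and NK cells, 0.58 for eosinophils, mast cells and basophils, -1.6 for the cerebellum and 0.50 for epidermis. Over brighter members they were 0.13, 1.3, -1.6 and 0.47, and -1.1 for sensory ganglion, -1 for pituitary and -0.74 for brain; the sympathetic median reversed to 0.06. Without the filter, the sympathetic median was -0.61 and the pituitary -0.038, and without genes of other lists, an alternative added after seeing the data, the sympathetic median was -0.46. Averaging probes reversed Armc4 (-0.03) and Trim63 (-0.49). All 48 list medians moved by less than 0.205, the median spot error of a difference, under quantile normalization, the percentile over detected probes, spike-in scaling and the series matrix. The cause of these shifts was not tested. Fewer probes were above background on the saline array, so more genes have only a bound there.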
